A study of Arabidopsis thaliana with 3 samples.

Results

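Leucine-rich repeat extensins (LRX proteins) are secreted cell wall proteins that join a leucine-rich repeat domain to a hydroxyproline-rich extensin tail. The extensin tail anchors the protein in the wall, and the leucine-rich repeat domain binds RALF peptides, small secreted signals that also act through receptor kinases of the CrRLK1L family, whose best known member is FERONIA. In Arabidopsis the family is commonly divided into LRX genes of pollen, LRX8 to LRX11, which maintain the integrity of the growing pollen tube, and LRX genes of vegetative tissue. The members described here are LRX8 (AT3G19020), LRX9 (AT1G49490), LRX10 (AT2G15880), LRX11 (AT4G33970) and 5 vegetative LRX loci, chosen by name. Of these 9 genes, 8 had a probe set that the platform annotation assigns to exactly 1 gene, 4 pollen and 4 vegetative, and each had 1 such probe set, among 22746 probe sets in all that are not array controls. The fifth vegetative locus, AT4G13340 (LRX3), was not analysed here. The annotation lists the measured members by locus only, so the numbers LRX8 to LRX11 are their published names, and the measured vegetative members are called by locus.

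The data are 3 Affymetrix ATH1 arrays of total RNA from Arabidopsis thaliana Col-0. A probe set on this array is several short oligonucleotides against 1 transcript, summarised as 1 signal. Germinating pollen was hybridised to 2 arrays. It was collected with its tubes after 6 h at 25°C in the dark on a cellophane-covered medium of 13.5% sucrose, calcium chloride, boric acid, potassium chloride, myo-inositol and agarose, with about 80% of the pollen germinated. The remaining array was hybridised with RNA of young seedlings, roots included, raised on Murashige-Skoog medium with sucrose, under 18 h of light by their sample label and 16 h by the design text of the series. All plants were untreated and of the same accession, and each labelling used 10 µg of total RNA. The labels do not say whether the pollen arrays came from separate plants or from repeated hybridisation of the same RNA, so the spread between them may be technical, and the seedlings have no replicate. In bulk RNA of this kind, fewer cells of a type and less RNA per cell cannot be told apart.

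Signals are MAS5 intensities on a linear scale, brought to a common trimmed mean of 122 on every array. The pooled median signal, 42.3, is used below as a floor, and 27 bacterial control probe sets that had no target reached 47.1 on pollen array 1, 65.7 on pollen array 2 and 14.3 on the seedling array. The photosynthetic marker genes PRK, LHCB4.1, RCA and PSAE-1 summed to 25529 in seedlings and to 81.4 and 178 in pollen. The tapetum genes A9 and AMS stayed under the highest control on both pollen arrays. None of the 3 pollen markers and 2 sperm cell markers listed for the check had a probe set of 1 gene, and of 4 markers of roots and root hairs only EXPA7 and EXPA18 did. EXPA7 read 121 and 101 in pollen and 22.0 in seedlings (limma adjusted p = 0.0416, higher in pollen), and EXPA18 read 113 and 56.4 against 23.6 (limma adjusted p = 0.142). Neither root marker was above the floor in seedlings, so each entered the test only through its pollen signals. Against the highest control of each array, EXPA7 was at 2.58 and 1.53 times in pollen and 1.54 times in seedlings. EXPA18 was at 2.40 and 0.857 times in pollen and 1.64 times in seedlings. On that scale the pollen and seedling arrays did not separate for either gene.

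The pollen members carried very high signals on both pollen arrays and none above background in seedlings. LRX9 read 32749 on pollen array 1, 31830 on array 2 and 7.39 in seedlings. LRX10 read 26863 and 25524 in pollen against 10.7 in seedlings. LRX8 read 25433 and 23421 against 5.91. In each case the pollen values lie close together and the seedling value is far below them. LRX11 read 11141 and 8899 against 12.5, the same arrangement with a wider gap between the pollen arrays. The seedling signals of the pollen members were 0.412 to 0.870 times the highest seedling control without a target, which leaves them indistinguishable from background. Their pollen signals, by contrast, were 135 to 695 times the highest control of their own array. Signals of different probe sets depend on their oligonucleotides, so no order of abundance is read between the genes.

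**Figure D1:**
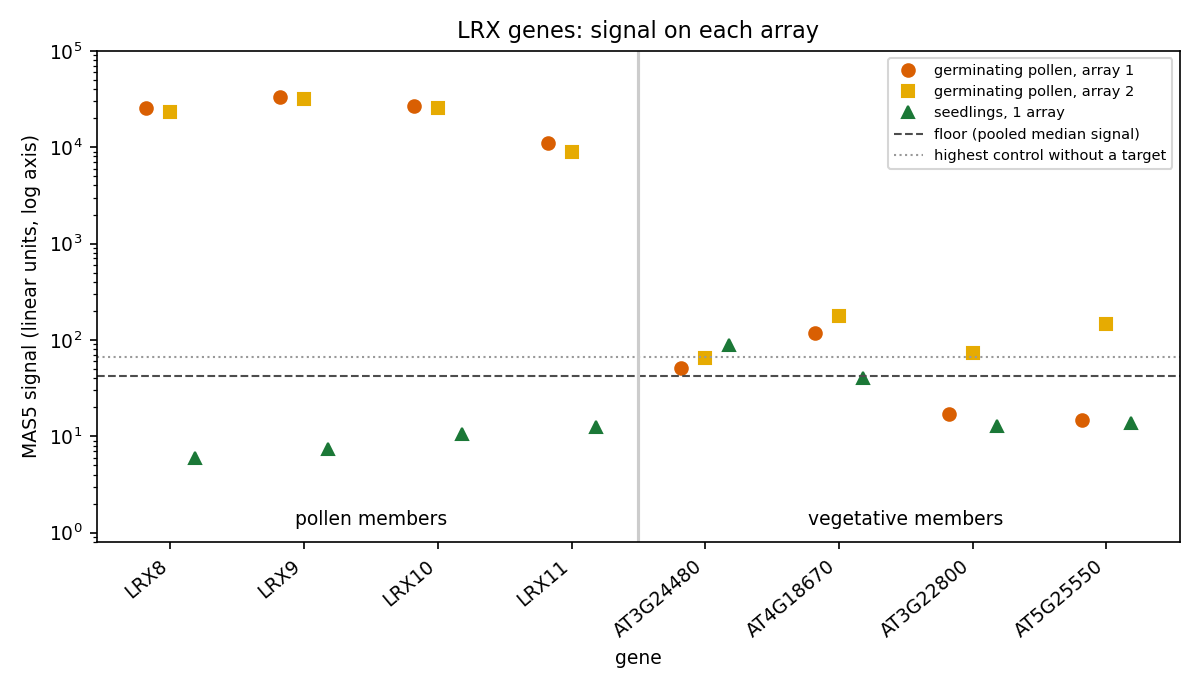
Signal of each measured LRX gene on each array (vertical axis, MAS5 signal, logarithmic); circles and squares are the pollen arrays, triangles the seedling array, the dashed line is the floor of 42.3 and the dotted line the highest control without a target, 65.7. The pollen members lie between 8899 and 32749 in pollen and between 5.91 and 12.5 in seedlings, whereas no vegetative member exceeds 176 on any array.

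Because the seedling signals of the pollen members were under the floor, their folds are lower bounds, the pollen mean over the floor. These bounds hold for arrays brought to equal trimmed means and would differ under another scaling. LRX9 had a pollen mean of 32289 ± 650 (SD, n = 2) and was at least 763-fold higher in pollen than in seedlings. LRX10, at 26194 ± 947 (SD, n = 2), was at least 619-fold higher, and LRX8, at 24427 ± 1422 (SD, n = 2), at least 577-fold higher. LRX11, at 10020 ± 1586 (SD, n = 2), was at least 237-fold higher. Taken on each pollen array alone, the bound for LRX11 was 263-fold and 210-fold, and that for LRX9 was 774-fold and 752-fold. In the limma fit over all tested probe sets, LRX8, LRX9 and LRX10 shared an adjusted p of 8.55e-06 and LRX11 had an adjusted p of 3.51e-05. All 4 stayed higher in pollen at the threshold of 0.05 under each of the 8 tested alternatives, with log2 differences from 6.89 to 12.09 and adjusted p of at most 0.00778. Summed, the 4 pollen members made up 1.23% of all signal on pollen array 1, 1.16% on array 2 and 0.000891% on the seedling array, which are shares of signal and not of transcripts.

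The vegetative members did not show the reverse arrangement. Their signals were low in both tissues, and only AT3G24480 was above the floor in seedlings. AT3G24480 read 51.0 and 65.5 in pollen and 88.9 in seedlings. Its seedling signal was 6.20 times the highest seedling control, while its pollen signals were 1.08 and 0.997 times the highest control of their arrays. The pollen signal was thus at the level of the highest control without a target, and above the medians of these controls, 14.4 and 9.11. The log2 difference, pollen minus seedling, was -0.51 ± 0.49 (SE, 2 pollen arrays and 1 seedling array), with a limma adjusted p = 0.414. The seedling value was above both pollen values, but by less than the test could separate. With arrays scaled by the hybridisation spikes, control transcripts meant to be added in equal amount to every sample, the log2 difference was -2.53 and passed (limma adjusted p = 0.0106). Under that scaling the median over all 17801 tested probe sets was -2.27, and 11861 of them were called lower. The call therefore does not set this gene apart from the array as a whole.

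AT4G18670 read 117 and 176 in pollen and 40.3 in seedlings. Both pollen values were above the seedling value, which was just under the floor, and the gene was at least 3.46-fold higher in pollen against that floor. Its log2 difference was 1.53 ± 0.44 (SE, same arrays), with a limma adjusted p = 0.0481, at the edge of the threshold. That call was kept under 4 of the 8 tested alternatives, with adjusted p from 0.0178 to 0.438, and under spike scaling the log2 difference turned to -0.42. Measured against the highest control without a target of its own array, the signal was 2.49 and 2.67 times the control in pollen and 2.81 times in seedlings. On that scale the 3 arrays did not separate.

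AT5G25550 and AT3G22800 were above the floor on 1 pollen array only and were not tested. AT5G25550 read 14.6 on pollen array 1, 145 on pollen array 2 and 13.6 in seedlings. The first pollen array matched the seedling array and the second was 9.94-fold brighter. Among the 1000 probe sets nearest to it in mean pollen signal, 99.4% had a smaller gap between the pollen arrays. AT3G22800 read 17.0, 73.1 and 12.9 in the same order, a 4.29-fold gap between the pollen arrays, larger than that of 80.7% of the 1000 nearest probe sets. The seedling signals of AT5G25550 and AT3G22800 were 0.949 and 0.899 times the highest seedling control. On pollen arrays 1 and 2, AT5G25550 was at 0.310 and 2.21 times the highest control of the array, and AT3G22800 at 0.362 and 1.11 times. Each gene was thus above the controls on pollen array 2 only. For neither gene did these arrays establish a signal in pollen or in seedlings.

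Counted together, 5 of the 6 tested members were higher in pollen by limma, the 4 pollen members and AT4G18670, where 22.1% of all 14812 tested probe sets were higher. These 5 genes entered the test only through their pollen signals, so the count is a description, and without the filter AT4G18670 was not called (limma adjusted p = 0.0738). None was lower, with 0 also at an unadjusted p under 0.05 in the same limma test, where 31.7% of all tested probe sets were lower. A count without a test, which asks that both pollen signals be 10 times or more that of seedlings, or of the floor where that is higher, held all 4 pollen members and 0 vegetative members, against 4.24% of all 22746 probe sets.

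The clades are set side by side here as a description, with no test between them. The median log2 difference of the 4 pollen members was 10.11 (range 8.52 to 10.51), and 9.22 when dim signals were set to the floor (7.88 to 9.58). The median of the 4 vegetative members was 1.10 (-0.51 to 1.53), or 0.64 with signals raised to the floor (-0.62 to 1.76), and it turned to -0.45 under spike scaling. It was 0.13 with pollen array 1 alone and 1.73 with pollen array 2 alone, whereas that of the pollen members was 10.16 and 10.06. The vegetative median includes the 2 untested members, and the median over all 22746 probe sets was 0.07. All tested probe sets had a median of -0.61, or -0.36 raised to the floor.

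**Figure D2:**
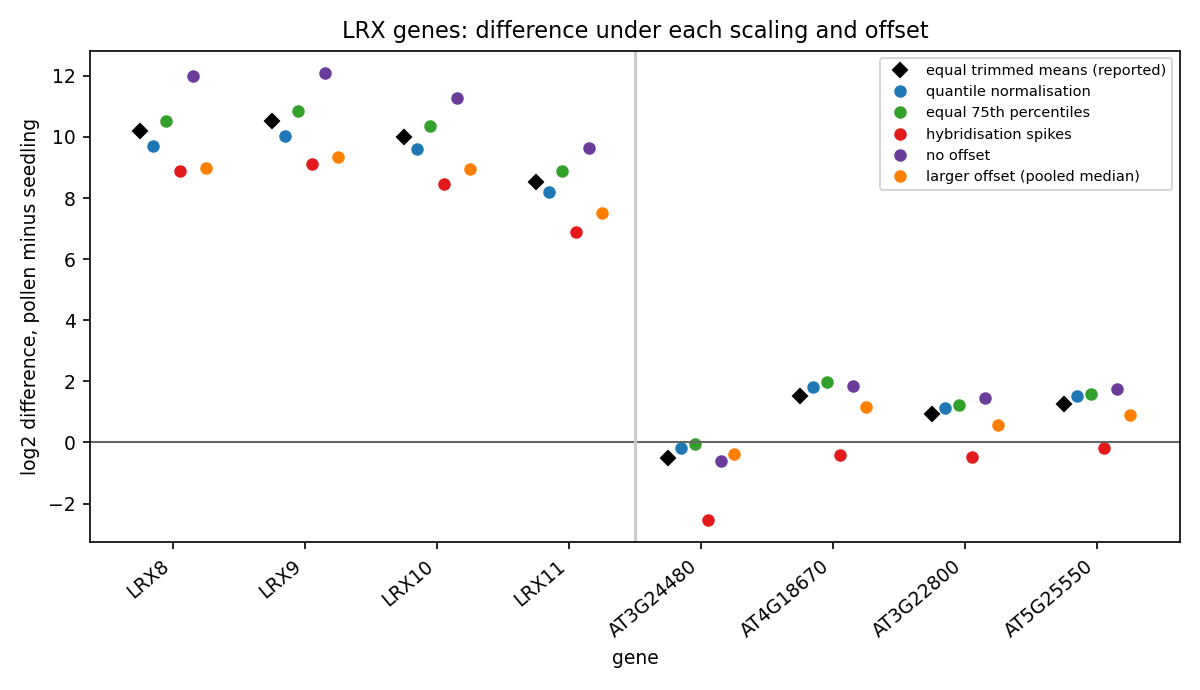
Log2 difference, pollen minus seedling, of each measured LRX gene (vertical axis) under 4 array scalings and 2 other offsets, with black diamonds for the reported setting. The pollen members stay between 6.89 and 12.09, while 3 of the vegetative members lie above 0 under every setting shown except spike scaling, where they are at -0.42, -0.48 and -0.17.

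The pollen arrays also differed in how closely they agreed on individual members. The gap between them on the log2 scale was 0.04 for LRX9, 0.07 for LRX10 and 0.12 for LRX8, within or near the median gap of 0.10 among the 1000 probe sets nearest in pollen signal. LRX11, with a gap of 0.32, had a larger gap than 93.3% of its 1000 nearest probe sets, small beside its difference from seedlings. The nearest sets of all 4 pollen members had the same median gap of 0.10, although LRX11 had a lower pollen signal than LRX9. These sets largely overlap, so they match the pollen members only loosely in brightness. AT3G24480 had a gap of 0.29 where the median was 0.47, and AT4G18670 had 0.53 where it was 0.26.

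The measured CrRLK1L receptor genes fell on both sides, some higher in pollen and others lower, while both measured RALF peptide genes were lower in pollen. Of 25 listed peptide, receptor and downstream genes, 9 had a probe set of 1 gene and all were tested, with 5 higher in pollen and 4 lower, where 22.1% and 31.7% of all tested probe sets were, and the other 16 were not analysed here. RALFL33 read 2.45 and 3.84 in pollen and 444 in seedlings and was at least 10.5-fold lower in pollen (limma adjusted p = 0.00255). RALFL34 read 19.7 and 97.1 in pollen and 947 in seedlings (limma adjusted p = 0.0173), with the pollen arrays apart but both far below the seedling array. RALF4 and RALF19, the peptides that LRX proteins of the pollen tube are known to bind, were not analysed here.

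Among the receptors, FER, the FERONIA kinase of vegetative tissue and the female gametophyte, read 3.90 and 4.58 in pollen and 306 in seedlings, at least 7.23-fold lower in pollen (limma adjusted p = 0.00288). THE1, a related sensor of wall integrity, read 16.6 and 21.4 against 170, at least 4.01-fold lower (limma adjusted p = 0.0173, and 0.0534 when no probe set was filtered out). These bounds are against the floor, which lies under the highest control on the pollen arrays. The receptors of the pollen tube had the opposite arrangement, as did LRX8 to LRX11. ANX1 read 4520 and 5759 in pollen against 2.06 in seedlings, and ANX2 read 10573 and 10313 against 1.03. The loci published as BUPS1 (AT4G39110) and BUPS2 (AT2G21480), receptors that pair with ANX1 and ANX2, read 14197 and 18894 against 11.7, and 3135 and 3115 against 7.24. The cytoplasmic kinase published as MRI (AT2G41970), which acts below these receptors, read 3053 and 2658 against 5.05. All 5 were above the floor on both pollen arrays and under the seedling control of 14.3 in seedlings, with limma adjusted p from 9.62e-06 to 5.1e-05. These 5 entered the test only through their pollen signals. RALFL33, RALFL34, FER and THE1 entered it only through the lone seedling array. The counts of 5 higher and 4 lower are therefore a description.

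**Figure D3:**
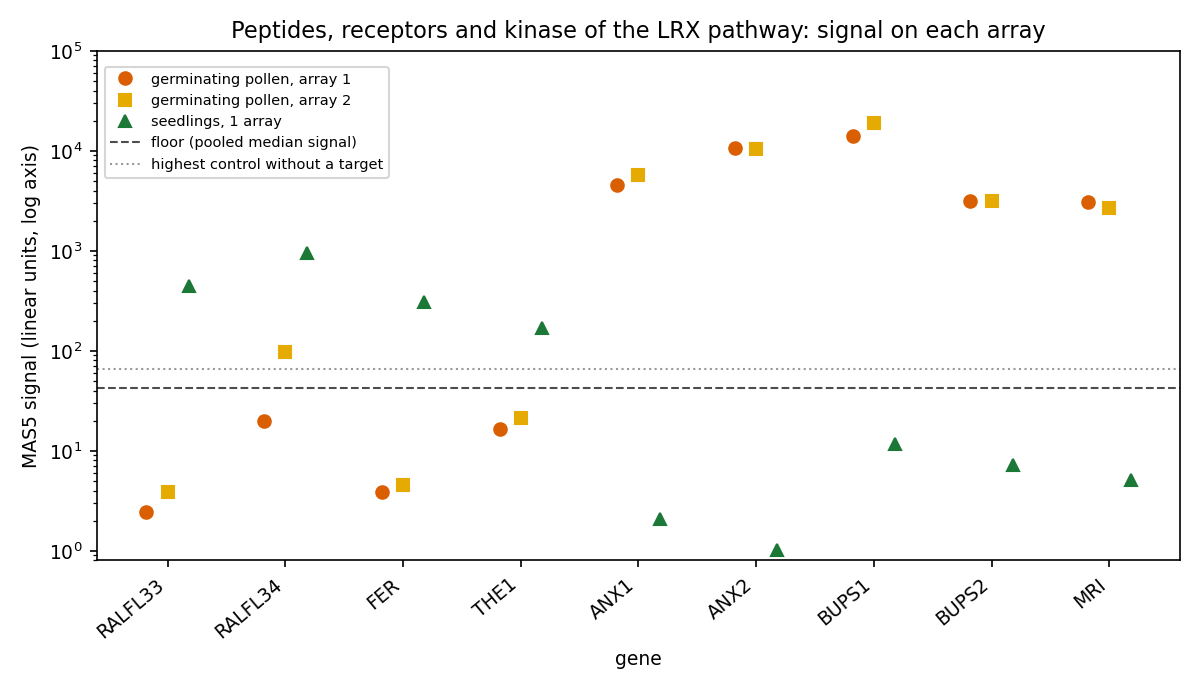
Signal on each array (MAS5, logarithmic axis) of the measured RALF peptide, CrRLK1L receptor and kinase genes, with the same symbols and lines as in the plot of LRX signals. RALFL33, RALFL34, FER and THE1 have the seedling array on top, and ANX1, ANX2, BUPS1, BUPS2 and MRI have both pollen arrays on top, from 2658 to 18894.

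Extensin tails are hydroxylated on proline and then carry short arabinose chains and single galactose residues. Of 12 genes listed for these steps, 4 were measured and tested. Of these 4, 0 were higher, also at an unadjusted p under 0.05 in the same limma test, and 1 was lower. Over all tested probe sets the shares were 22.1% and 31.7%, and 4 genes are too few to set apart from those shares. XEG113, an arabinosyltransferase, read 153 and 106 in pollen and 98.2 in seedlings (limma adjusted p = 0.488). AT3G01720, listed as the serine galactosyltransferase, read 92.4 and 96.6 against 81.9 (limma adjusted p = 0.722), and AT3G57630, listed as a further arabinosyltransferase, read 39.3 and 49.2 against 55.0 (limma adjusted p = 0.69). The pollen signals of AT3G57630 were 0.834 and 0.748 times the highest control without a target, and its seedling signal was 3.84 times that control. None of these 3 genes passed. Under spike scaling all 3 were called lower in pollen, as were 11861 of all 17801 probe sets tested there. Their log2 differences, from -2.15 to -1.77, were less negative than the median of -2.27 over those probe sets. AT5G13500, listed as a hydroxyproline arabinosyltransferase, entered the test only through the lone seedling array, as did AT3G57630. AT5G13500 read 16.7 and 22.0 against 82.7 and was called lower (limma adjusted p = 0.0406). That call was lost under quantile normalisation, 75th percentile scaling, no offset and no filter, with adjusted p up to 0.165.

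Of 15 listed classical extensins and extensin-like receptor kinases, only HRGP1, a hydroxyproline-rich glycoprotein of the extensin type, was measured. It read 620 and 549 in pollen and 44.0 in seedlings, 13.3-fold higher in pollen (log2 difference 3.35 ± 0.20, SE, limma adjusted p = 0.00075). Under spike scaling the log2 difference was 1.33 (limma adjusted p = 0.00815). Its probe set is marked by its name as one whose oligonucleotides can match other genes, so the signal may hold transcripts of other extensins, whereas the names of all 8 LRX probe sets carry no such mark. Over these lists 14 of 52 genes were measured, and what the others did was not analysed here.

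Genes next to the pollen LRX loci were compared with them, a choice made after the values of the members were known. For each LRX gene the 2 protein-coding genes on either side were taken from the order of genes in the TAIR10.1 reference table. Of 16 such neighbours of the 4 pollen members, 10 were measured and 8 tested, of which 2 were higher in pollen, 5 were lower and 1 did not pass. AT3G19010, beside LRX8, read 2302 and 2557 in pollen and 113 in seedlings (log2 difference 4.25, limma adjusted p = 9.59e-05). AT4G33980, beside LRX11, read 117 and 146 against 1.57 (limma adjusted p = 0.0103). On the other side of the same loci, AT3G19030 read 60.9 and 65.1 against 459, and AT4G33960 read 4.12 and 3.73 against 46.2, both lower in pollen (limma adjusted p = 0.00423 and 0.0026). AT1G49500, beside LRX9, read 91.0 and 6.52 against 794 (limma adjusted p = 0.0354). The neighbours thus lay on both sides, 2 of 8 higher where 22.1% of all tested probe sets were higher and 5 of 8 lower where 31.7% were lower, a count too small to set apart from those shares. The lower neighbours AT1G49500, AT2G15860, AT3G19000 and AT4G33960 entered the test only through the lone seedling array. The higher neighbour AT4G33980 entered it only through its pollen signals. None of the 10 had a log2 difference above 4.25, whereas the LRX genes beside them were at 8.52 or more.

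**Figure D4:**
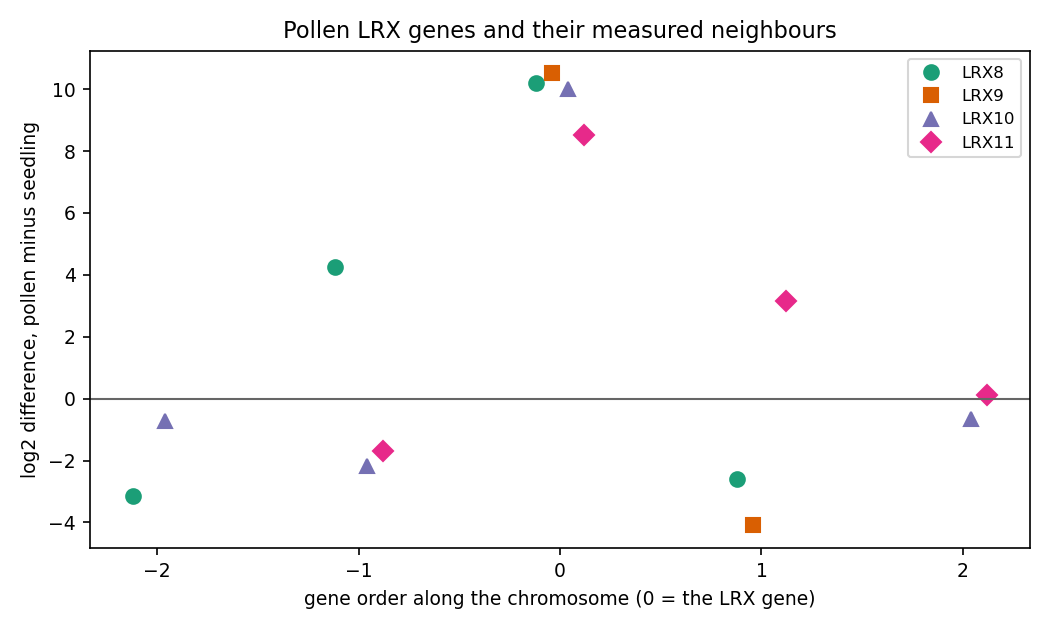
Log2 difference, pollen minus seedling (vertical axis), of LRX8, LRX9, LRX10 and LRX11 at position 0 and of their measured neighbours by gene order along the chromosome (horizontal axis, in genes), with 1 symbol for each LRX locus. The LRX genes lie between 8.52 and 10.51, and the neighbours between -4.09 and 4.25.

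AT3G24480 was the only member above the floor on all 3 arrays, so a search for like patterns was made for it alone. Likeness was the Euclidean distance between pairs of log2 differences, each pollen array minus the seedling array, over 3 arrays and 3036 other probe sets of 1 gene above the floor. The nearest were AT4G32420 at a distance of 0.03, AT2G28600 at 0.04 and AT1G55000 at 0.05 log2 units. These distances are far smaller than the SE of 0.49 of the log2 difference of AT3G24480, whose pollen signals were at the level of the highest controls. The ranking is therefore a description and does not establish a shared pattern. AT4G32420 read 128 and 156 in pollen and 206 in seedlings.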

How the data were processed

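Per the submitters' processing notes, the authors computed the deposited intensities with MAS5, whose version is not given in the sources used here. They had already been scaled to a common trimmed mean, and no detection or saturation flags were used here. Arrays were rescaled to equal 2% trimmed means, and log2 was taken after adding an offset of 14.7, their pooled 30th percentile. A probe set was tested if the seedling signal, or both pollen signals, exceeded the pooled median (42.3). limma 3.58.1 in R 4.3.3 was used on 14812 such probe sets (lmFit, trended eBayes, two-sided), and p-values were adjusted by Benjamini-Hochberg, with 0.05 as threshold. The fit takes the spread of the lone seedling array from the pollen pair. The p-values rest on the spread between the pollen arrays, drawn by eBayes toward its trend over all tested probe sets. They measure no spread between seedling samples. On simulated arrays the share of false calls exceeded the nominal level, mostly through calls of lower signal, so calls near the threshold are weak. SE is limma's. Of 22810 probe sets, 64 controls were left out, and 13513 had exactly 1 gene in the platform annotation.

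Members, gene lists and tests were chosen with earlier results of these data known. All 9 members, the tested genes of 3 related lists and the 3 nearest patterns of any member above the floor on all arrays were to be named, and the neighbouring genes were added later. Coordinates are not given, and sequences were not used here. Alternatives were other scalings, offsets, filters and variance models, and leaving out each pollen array.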

Additional observations from a re-analysis of the deposited data

How the results depend on the processing

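The median log2 difference of the 4 pollen members, 10.11 as reported, was 9.67 with quantile normalisation, 10.44 with 75th percentile scaling, 8.67 with spike scaling, 11.64 without an offset, 8.97 with an offset at the pooled median and 9.22 with dim signals set to the floor. It was 10.06 and 10.16 on either pollen array alone. The median of the 4 vegetative members, 1.10, was -0.45 under spike scaling and lay between 0.13 and 1.73 on either pollen array alone, so pollen array 2 carries most of it. Under spike scaling 1 member (AT3G24480) was called lower in place of 0, and the log2 difference of AT4G18670 was -0.42 (limma adjusted p = 0.438). The spikes had geometric mean signals of 4122 and 3681 in pollen and 785 in seedlings, and the median of all tested probe sets moved from -0.61 to -2.27 under that scaling. The call of AT4G18670 was also lost with the larger offset (adjusted p = 0.051), without a filter (0.0738) and without a variance trend (0.0542), and the cause was not tested. The number of members called higher was 4 or 5 in every alternative tested, and calls in the related lists ranged from 9 to 14 around the reported 11. Over all tested probe sets 41.1% of the calls were higher, 53.1% with 75th percentile scaling and 10.7% with spike scaling. Higher calls numbered 3279 of 14812 tested probe sets as reported and 1423 of 17801 with spike scaling. Lower calls numbered 4692 and 11861 of the same totals. No paired analysis was possible because the seedling group has 1 array and shares at most 1 replicate number with pollen. With 1 array left in each group there was no test. No member had another probe set of 1 gene, so that alternative gave no value. Few arrays and, for the vegetative members, signals near the controls without a target limit the precision.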

Other observations

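All 4 pollen members were brighter on pollen array 1 than on array 2, by 1.03-fold for LRX9, 1.05-fold for LRX10, 1.09-fold for LRX8 and 1.25-fold for LRX11. All 4 vegetative members were brighter on array 2, by 1.28-fold for AT3G24480, 1.5-fold for AT4G18670, 4.29-fold for AT3G22800 and 9.94-fold for AT5G25550. The share of all probe sets brighter on either pollen array is not given here, so these counts are a description. The gaps of LRX8, LRX9, LRX10 and AT3G24480 were below or near the median of their nearest probe sets. Those of LRX11, AT4G18670, AT3G22800 and AT5G25550 were larger than most. The highest control without a target was 47.1 on array 1 and 65.7 on array 2, and the median of these controls was 14.4 and 9.11. The part of these controls in the differences between the pollen arrays was not tested.

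Of 20 genes next to the 5 vegetative LRX loci, 10 were measured, with 2 higher in pollen, 2 lower, 3 that did not pass and 3 not tested, where 22.1% of all tested probe sets were higher and 31.7% lower. The 2 higher genes entered the test only through their pollen signals, and the 2 lower genes only through the lone seedling array. AT5G25530, which lies 2 genes from AT5G25550, read 792 and 725 in pollen and 11.5 in seedlings (limma adjusted p = 0.000277), while AT5G25550 itself was bright on pollen array 2 only. AT3G24490, next to AT3G24480, read 48.8 and 47.9 in pollen and 93.6 in seedlings (limma adjusted p = 0.241).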
